A study of Mus musculus with 4 samples.

Results

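This account describes 6 mouse transcripts that were higher after sciatic nerve injury both in RNA of whole dorsal root ganglia and in RNA bound to neuronal ribosomes. They were chosen from 116912 listed transcript identifiers. The choice asked that the columns of each file agree (chi-square p above 0.001, called steady below) and that mean reads, scaled by library total, be 2-fold or more higher after injury in each assay. Without a read minimum 582 transcripts meet that rule. With 20 or more reads summed over the injured and uninjured libraries of each assay, 1252 transcripts are steady and 8 of them (0.639%) meet it, and the 6 are among these 8. The injury changes below are therefore the values that chose the transcripts and are given as a description.

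Dorsal root ganglia hold the cell bodies of peripheral sensory neurons, together with satellite glia, Schwann cells, vessels and immune cells. When the axons of these neurons are damaged in the nerve, the cell bodies change their transcription and translation, and peripheral axons can regrow. The RiboTag method places an HA epitope on a ribosomal protein in chosen cells, so that an anti-HA antibody brings down ribosomes with the messages they carry. A transcript can thus be followed both in the tissue as a whole and in the ribosome-bound pool of 1 cell type.

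The bulk libraries came from adult wild-type CD-1 mice, either uninjured or 72 hours after a forceps injury of the sciatic nerve, and were made from whole-lysate RNA with the nanopore direct RNA kit SQK-RNA002. The RiboTag libraries came from adult mice of genotype RPL22HA+/+;Advillin-Cre+ (a cross of the RiboTag strain B6N.129-Rpl22tm1.1Psam/J with the Cre driver strain B6.129P2-Aviltm2(cre)Fawa/J), uninjured or at the same time after injury. Their RNA was recovered with anti-HA antibody ab9110 and sequenced with the cDNA-PCR barcoding kit SQK-PCB109. Advillin-Cre limits the tag to cells in which that driver is active, which are mainly sensory neurons, and both RiboTag groups carry the tagged ribosomal protein and the Cre. Kit, strain, genotype and immunoprecipitation changed together between the assays and cannot be told apart. Every group consisted of 1 sample. No test between conditions could therefore be made, and the spread between animals is unknown.

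Bulk libraries held 592935 (uninjured) and 529332 (injured) estimated reads as the mean of their columns, and RiboTag libraries 207597 and 79334. Levels are given as RPM, reads scaled to a library of 1000000. A single read is thus worth 1.69 and 1.89 RPM in the bulk libraries and 4.82 and 12.6 RPM in the RiboTag libraries. A pair of dominant transcripts took 31.2% of uninjured and 40.9% of injured RiboTag reads but under 0.02% of bulk reads, and they enter the totals used for scaling. The 3 columns of a file were averaged and counted as 1 sample. Intervals below are 95%, are drawn from the mean of the columns rather than their sum, and cover counting error only. None of the listed transcript identifiers is paired with a gene in the tables used here, so the 6 are called by their identifiers, their roles, positions and sequences are not given, and cell type markers were not checked.

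ENSMUST00000024956.15 and ENSMUST00000240553.1 had the most similar course of the 6. In ENSMUST00000024956.15 the uninjured bulk columns held 31.7, 48.9 and 49 reads, and the injured bulk columns held 133.6, 129.3 and 140.9. Its RiboTag columns held 5, 15 and 7.82 reads without injury and 16, 23 and 18 after it. The injured columns lay above the uninjured ones in both assays, also in unscaled reads. On the RPM scale its mean level was 72.9 (52.5 to 97.7) in uninjured and 254 (214 to 302) in injured bulk RNA. The RiboTag level was 44.7 (19.8 to 82.3) without and 239 (144 to 374) with injury. These levels correspond to log2 changes of 1.79 (1.31 to 2.34) in bulk and 2.38 (1.25 to 3.79) in RiboTag RNA, with 0.5 read added to each count, as in all log2 ratios here unless stated. Both intervals lie above 2-fold.

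ENSMUST00000240553.1 held 49.0, 49 and 44 reads in the uninjured bulk columns and 157.0, 172.0 and 144 in the injured ones. Its RiboTag columns held 10, 10 and 5.39 reads without injury and 17 in each column after it. Again the columns of the conditions did not overlap. Its bulk level went from 79.8 RPM (58.2 to 105) to 298 (254 to 349), and its RiboTag level from 40.8 (16.6 to 75.9) to 214 (125 to 343). The log2 change was 1.89 (1.43 to 2.41) in bulk and 2.35 (1.19 to 3.90) in RiboTag RNA. This was the second of 2 transcripts whose intervals lay above 2-fold in both assays.

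ENSMUST00000190827.7 had the largest bulk change of the 6. Its uninjured bulk columns held 48, 45 and 49 reads and its injured ones 240, 215 and 209. In RiboTag RNA the columns held 18, 24 and 28 reads without injury and 33, 24 and 31 with it. In unscaled RiboTag reads the conditions overlapped, as the highest uninjured column held 28 and the lowest injured one 24. After scaling by column totals they did not overlap. Its bulk level was 79.8 (58.2 to 105) and 418 (364 to 476) RPM, and its RiboTag level 112 (70.2 to 166) and 370 (245 to 525). The log2 change was 2.38 (1.94 to 2.88) in bulk and 1.71 (0.88 to 2.58) in RiboTag RNA. It was the only one of the 6 with a smaller change in RiboTag than in bulk RNA, though the interval of the difference included 0. With the columns summed instead of averaged, the difference was -0.67 with an interval that excluded 0 (-1.19 to -0.15).

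**Figure D1:**
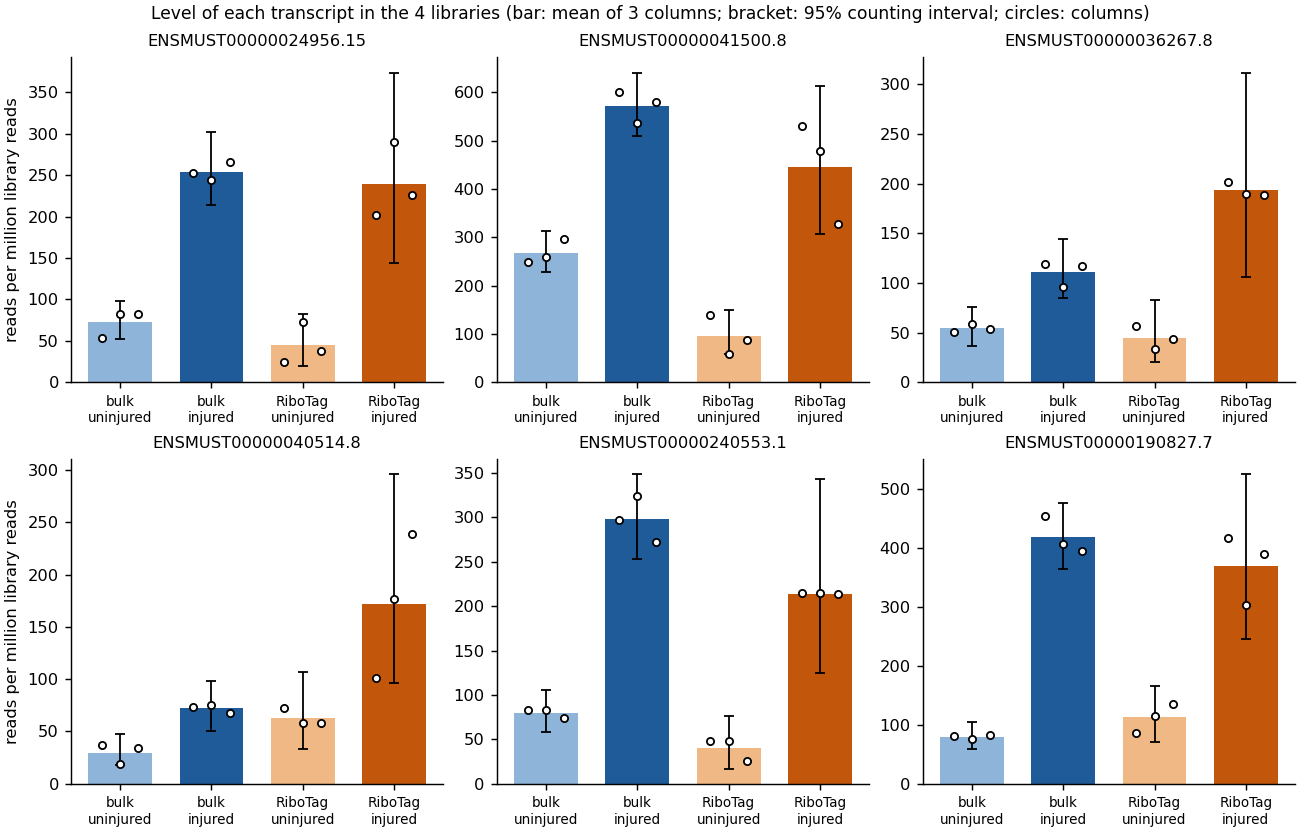
Level of each of the 6 transcripts in RPM (vertical axis from 0) in the 4 libraries; bars are means of the 3 columns, brackets 95% counting intervals and circles single columns. In every panel the circles of the injured library lie above those of the uninjured library of the same assay.

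ENSMUST00000041500.8 had the most reads of the 6 in 3 of the 4 libraries, and its bulk interval was the narrowest. The uninjured bulk columns held 147, 154 and 175 reads and the injured ones 318, 284 and 307. The RiboTag columns held 29, 12 and 18 reads without injury and 42, 38 and 26 with it. The highest uninjured RiboTag column exceeded the lowest injured one in unscaled reads, 29 against 26, and lay below it after scaling, at 140 against 327 RPM. Its bulk level was 268 (228 to 313) without and 572 (510 to 641) RPM with injury. Its RiboTag level was 94.7 (58.8 to 149) and 445 (307 to 614). The log2 change in bulk RNA was 1.09 (0.81 to 1.38) and that in RiboTag RNA 2.22 (1.36 to 3.07), so the RiboTag interval alone lay above 2-fold.

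ENSMUST00000036267.8 passed the choice by the narrowest margin in bulk RNA. It held 30, 35 and 32 reads in uninjured and 63, 51 and 62 in injured bulk columns. Its RiboTag columns held 11.7, 7 and 9 reads without injury and 16, 15 and 15 with it. The columns of the conditions were apart in both assays. The bulk level was 54.5 (36.9 to 76.2) and 111 (84.9 to 144) RPM, and the RiboTag level was 44.4 (19.8 to 82.3) and 193 (106 to 312). The log2 change was 1.01 (0.40 to 1.71) in bulk RNA and 2.09 (0.84 to 3.50) in RiboTag RNA. In bulk RNA the 2-fold mark was missed with TMM factors (log2 0.98), with a pseudocount of 5 reads (0.93), without column 1 (0.91) and without column 3 (0.96).

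ENSMUST00000040514.8 had the fewest bulk reads of the 6. It held 22, 11 and 20 reads in uninjured and 39, 40 and 36 in injured bulk columns, which did not overlap. The RiboTag columns held 15, 12 and 12 reads without injury and 8, 14 and 19 with it, and overlapped before scaling. On the scaled level they ranged from 57.8 to 72.2 and from 101 to 239 RPM. Mean levels were 29.8 (18.0 to 48.0) and 72.4 (50.8 to 98.5) RPM in bulk RNA and 62.6 (33.3 to 107) and 172 (96.5 to 296) in RiboTag RNA. The log2 change was 1.26 (0.40 to 2.14) in bulk and 1.46 (0.30 to 2.70) in RiboTag RNA. Without column 3 its RiboTag log2 change was 1.10 with an interval that included no change (-0.24 to 2.29), and without column 2 its bulk change was 0.99, under 2-fold.

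Each of the 6 was 2-fold or more higher after injury in both assays with intervals above no change, as the choice required for the fold. Over all 7739 transcripts with 20 or more bulk reads, 5.21% were higher by the same fold and interval rule, and over 1866 with 20 or more RiboTag reads 2.95% were. By the fold alone, 1.04% of the 1252 steady transcripts were higher in bulk and 3.12% in RiboTag RNA. As a group the 6 had a median log2 change of 1.53 (bulk) and 2.15 (RiboTag), beside -0.00 and -0.21 over all transcripts tested. Scaling moved the median of all transcripts tested in RiboTag RNA from -0.21 to 0.01 when the dominant pair was left out of the totals, and to -0.31 with TMM factors. The median of the 6 moved with it to 2.37 and 2.05, and all 6 stayed at 2-fold or more in RiboTag RNA under both. In bulk RNA, 3 of the 6 intervals lay wholly above 2-fold, and 3 of 6 did in RiboTag RNA.

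**Figure D2:**
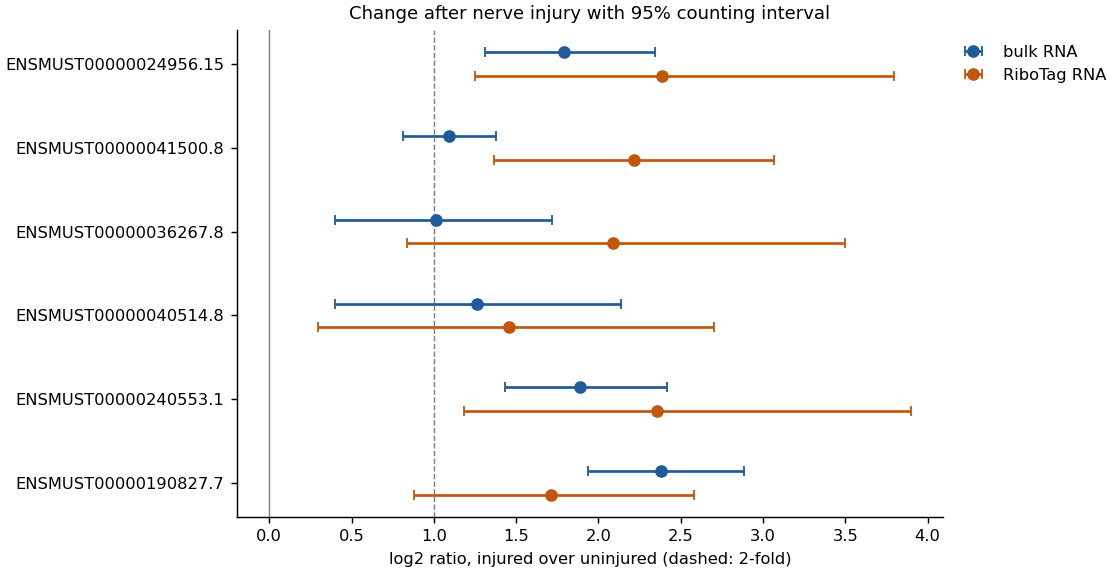
Log2 ratio of injured over uninjured reads (horizontal axis) for each transcript in bulk and RiboTag RNA; points are ratios of library means, brackets 95% counting intervals, and the dashed line is 2-fold. All 12 brackets lie right of 0, and the bulk bracket of ENSMUST00000190827.7 (1.94 to 2.88) lies right of that of ENSMUST00000041500.8 (0.81 to 1.38).

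Columns of the conditions did not overlap after scaling in either assay for any of the 6. Among the 1252 steady transcripts with enough reads, 15.2% had all injured bulk columns above all uninjured ones, 11.0% had this in RiboTag RNA and 3.67% in both. The 9 pairings of an injured with an uninjured column gave 54 folds per assay over the 6 transcripts, of which 46 in bulk and 51 in RiboTag RNA reached 2-fold. The folds that missed it came from ENSMUST00000041500.8, ENSMUST00000036267.8 and ENSMUST00000040514.8 in bulk RNA and from ENSMUST00000040514.8 in RiboTag RNA, where the lowest was 1.40-fold. Nothing in the labels says that the columns of a file came from separate animals. Agreement of the columns and the 2-fold change of their mean were part of the choice. The lack of overlap and the counts of pairings therefore follow largely from it. The same pairings were not counted for the other steady transcripts.

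The scaled RiboTag folds combine the ratio of unscaled reads with the difference in depth between the RiboTag libraries. The injured RiboTag library was 2.62 times shallower than the uninjured one. Before scaling, mean RiboTag reads after injury were 2.05 times those before it for ENSMUST00000024956.15, 2.01 for ENSMUST00000240553.1, 1.80 for ENSMUST00000041500.8, 1.66 for ENSMUST00000036267.8, 1.26 for ENSMUST00000190827.7 and 1.05 for ENSMUST00000040514.8. All 6 thus had more reads in the shallower library. Unscaled and scaled ratios differ only by the difference in depth. The scaled fold was part of the choice, so this count is not free of it. More unscaled reads after injury were found for 1.12% of the 1252 steady transcripts in RiboTag RNA and for 24.4% in bulk RNA, where the injured library was 1.12 times shallower. Depth moved with the RiboTag change in this way, and its part in the result was not tested.

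Among themselves the 6 differed in bulk RNA by more than counting error in a few pairs. The bulk intervals did not overlap in 3 of 15 pairs. ENSMUST00000190827.7 lay above ENSMUST00000041500.8 and ENSMUST00000036267.8, and ENSMUST00000240553.1 lay above ENSMUST00000041500.8. In RiboTag RNA the intervals overlapped in all 15 pairs, so they set none of the RiboTag changes apart at this depth; a test of each pair was not run. The order of the 6 by bulk change was not their order by RiboTag change. The largest bulk change, that of ENSMUST00000190827.7, went with the second smallest RiboTag change.

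**Figure D3:**
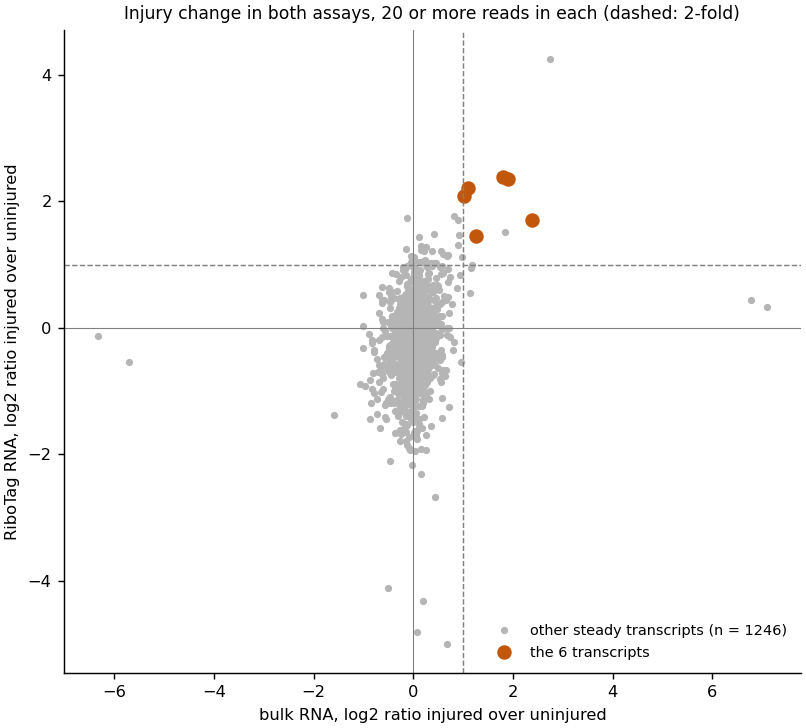
Log2 injury change in bulk RNA (horizontal axis) against that in RiboTag RNA (vertical axis) for the 1252 steady transcripts that reach 20 reads per assay; large points are the 6 transcripts, grey points the other 1246, and dashed lines mark 2-fold. The 6 lie beyond both dashed lines, between 1.01 and 2.38 on the bulk axis and between 1.46 and 2.38 on the RiboTag axis.

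The next question was where the ribosome-bound level of these transcripts stood relative to the whole ganglion. Without injury 1 of the 6 was called lower in RiboTag RNA and 0 higher, where 44.1% and 14.5% of 6174 transcripts tested were called lower and higher (18.1% and 33.8% of the steady ones). That transcript was ENSMUST00000041500.8, with a log2 ratio of RiboTag to bulk level of -1.47 (-2.23 to -0.80). Its interval still lay below 0 with the dominant pair left out of the totals, but the ratio of -0.93 (-1.69 to -0.26) was then under 2-fold. ENSMUST00000240553.1 had a ratio of -0.90 (-2.33 to 0.05) and ENSMUST00000024956.15 one of -0.65 (-1.96 to 0.31). ENSMUST00000036267.8 stood at -0.24 (-1.57 to 0.78), ENSMUST00000190827.7 at 0.51 (-0.30 to 1.23) and ENSMUST00000040514.8 at 1.09 (-0.11 to 2.15). Intervals of these 5, drawn from the mean of the columns, included equal levels. With the columns summed they excluded them for ENSMUST00000240553.1 (-1.67 to -0.37), ENSMUST00000024956.15 (-1.35 to -0.10), ENSMUST00000190827.7 (0.06 to 0.92) and ENSMUST00000040514.8 (0.44 to 1.70). That of ENSMUST00000036267.8 (-0.94 to 0.34) still included them. Summing treats the columns as separate reads, which is not stated in the sources used here.

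After injury 1 of the 6 was called higher in RiboTag than in bulk RNA and 0 lower. This was ENSMUST00000040514.8, at 1.28 (0.30 to 2.21), where 7.69% of 5045 transcripts tested were called higher and 36.0% lower (20.6% and 21.4% of the steady ones). The call ended without column 3, at 0.94 (-0.23 to 1.87). The other 5 ratios were -0.05 for ENSMUST00000024956.15, -0.34 for ENSMUST00000041500.8, 0.84 for ENSMUST00000036267.8, -0.44 for ENSMUST00000240553.1 and -0.16 for ENSMUST00000190827.7, each with an interval that included 0. With the columns summed, the intervals of ENSMUST00000041500.8 (-0.67 to -0.07), ENSMUST00000036267.8 (0.30 to 1.28) and ENSMUST00000240553.1 (-0.92 to -0.06) excluded 0. Those of ENSMUST00000024956.15 and ENSMUST00000190827.7 still included it. The median over the 6 was -0.44 without and -0.11 with injury, beside -0.98 and -1.25 over all transcripts tested and 0.44 and 0.21 over the 1252 steady ones, which all have 20 or more RiboTag reads. The sign of the medians of the 6 turned to 0.09 and 0.65 with the dominant pair left out of the totals. The uninjured and injured libraries also entered the choice, so these ratios are not free of it.

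With totals lacking the dominant pair, the calls in the uninjured ratio changed for 3 of the 6. ENSMUST00000041500.8 was no longer called lower, while ENSMUST00000040514.8 (1.62) and ENSMUST00000190827.7 (1.05) were called higher. Of all 6174 transcripts tested, 20.6% were called higher and 31.7% lower under this scaling, and of the steady ones 49.1% and 10.9%. It also moved the median of the steady transcripts from 0.44 to 0.98. ENSMUST00000190827.7 stood near that median both with library totals (0.51) and under this scaling (1.05). In the injured ratio ENSMUST00000036267.8 (1.60) was then called higher beside ENSMUST00000040514.8, where 37.1% of the steady transcripts were called higher and 11.7% lower. Kit, strain and genotype differ between the assays, so these ratios are not a measure of ribosome occupancy.

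**Figure D4:**
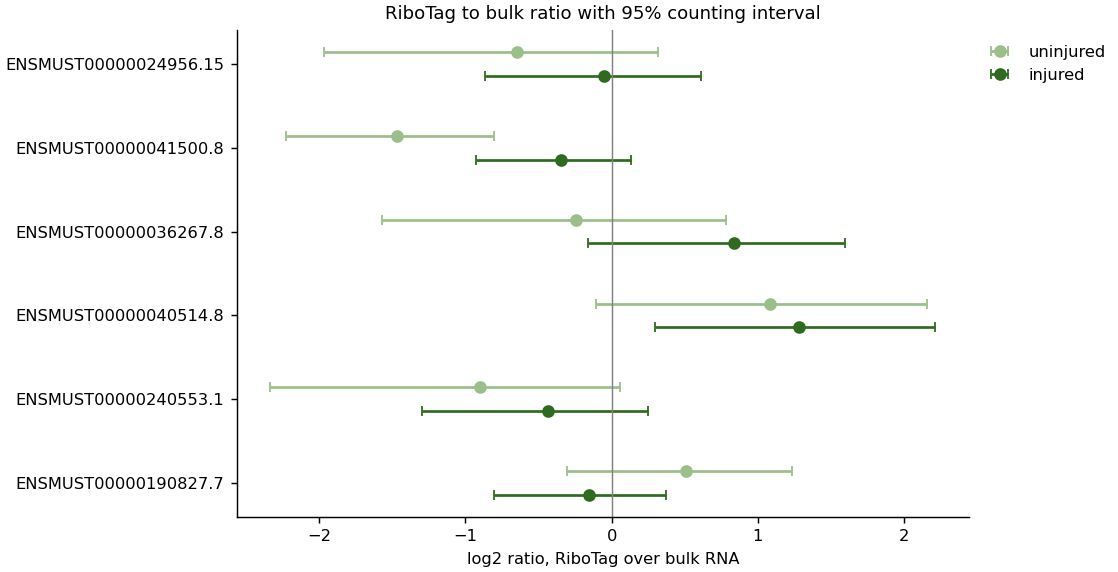
Log2 ratio of RiboTag to bulk level (horizontal axis) for each transcript without injury (light) and after it (dark). Brackets are 95% counting intervals from the mean of the columns, and the vertical line marks equal levels. Of the 12 brackets, 10 cross the line; the exceptions are uninjured ENSMUST00000041500.8 (-1.47) and injured ENSMUST00000040514.8 (1.28).

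How far injury shifted the ratio of RiboTag to bulk level is the difference of the log2 changes, which uses the values of the choice. Effects of kit and strain that are constant for a transcript cancel in it, but the bulk RNA holds all cells of the ganglion, where fewer cells of a type and less RNA per cell cannot be told apart. ENSMUST00000041500.8 was the only one of the 6 counted as changed, with a ratio higher by 1.12 (0.29 to 1.96) after injury, where 2.63% of 4905 transcripts tested were counted as higher and 3.61% as lower. Without column 2 its value was 0.79 (-0.01 to 1.59) and it was no longer counted. ENSMUST00000036267.8 had a difference of a like size, 1.08, with a wider interval (-0.23 to 2.38). The differences were 0.59 (-0.62 to 1.81) for ENSMUST00000024956.15, 0.46 (-0.79 to 1.72) for ENSMUST00000240553.1, 0.20 (-1.15 to 1.54) for ENSMUST00000040514.8 and -0.67 (-1.56 to 0.23) for ENSMUST00000190827.7. Intervals of this width allow differences of more than 2-fold in at least 1 direction for each of the 6.

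The order of the levels over the 4 libraries depended on the scaling between the assays. The orders given here are those with library totals. When the dominant pair is left out of the totals, injured RiboTag lies above injured bulk in all 6, with log2 ratios of 0.32 to 2.04. In ENSMUST00000024956.15 and ENSMUST00000240553.1 the order from low to high was uninjured RiboTag, uninjured bulk, injured RiboTag and injured bulk. Counting intervals separated the uninjured from the injured libraries in both transcripts, and overlapped between the assays within each condition. ENSMUST00000041500.8 had the same order, but its uninjured RiboTag level stood apart from the other 3 and its uninjured bulk interval (228 to 313 RPM) just reached that of injured RiboTag RNA (307 to 614). ENSMUST00000190827.7 differed in having uninjured bulk as the lowest library, with the conditions again separated. In ENSMUST00000036267.8 and ENSMUST00000040514.8 injured RiboTag was the highest library with library totals as well. Counting intervals of ENSMUST00000036267.8 again separated the conditions. In ENSMUST00000040514.8 every neighbouring pair in the order overlapped.

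By their profile over the 4 libraries, taken as log2 RPM centred on each transcript's own mean, ENSMUST00000024956.15 and ENSMUST00000240553.1 were the closest pair among the 6, at a Euclidean distance of 0.33. The most distant pair, ENSMUST00000041500.8 and ENSMUST00000040514.8, lay 2.16 apart. Among 1246 other steady transcripts, ENSMUST00000107094.2 was the nearest to 4 of the 6, at distances of 0.62 from ENSMUST00000024956.15, 0.65 from ENSMUST00000190827.7, 0.68 from ENSMUST00000240553.1 and 0.92 from ENSMUST00000041500.8. It is 1 of the 2 other transcripts that meet the same rule, with scaled log2 changes of 1.85 in bulk and 1.52 in RiboTag RNA. The nearest to ENSMUST00000040514.8 was ENSMUST00000053686.9 at 0.37, and the nearest to ENSMUST00000036267.8 lay at 0.46. Median distances from the 6 to the 1246 transcripts were 2.03 to 2.71. Each profile has only 4 values, so closeness in it is a description.

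In bulk RNA the transcripts just outside the choice differed little from those just inside. Without a pseudocount, ENSMUST00000036267.8 was 2.03-fold higher in bulk RNA and ENSMUST00000041500.8 2.14-fold. Their RiboTag folds, 4.35 and 4.70, were larger than those of the transcripts just outside. The closest steady transcript outside was 1.98-fold higher in bulk and 2.17-fold in RiboTag RNA, and the next was 2.30-fold higher in bulk and 1.97-fold in RiboTag RNA. ENSMUST00000053686.9, the third, was 1.90-fold and 2.76-fold higher. The bulk intervals of both transcripts just inside reach below 2-fold.

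Reads of a transcript can move to a similar one when an estimator divides ambiguous reads. Which transcripts are similar to the 6 is not given in the sources used here. The rows listed near each of the 6 are described instead, and they cannot show whether reads were shared. Estimated counts of the 6 were whole, to within 0.001, in 61 of 72 values above 0 (84.7%), beside 68.3% of values of the 1252 steady transcripts. All 12 values were whole for ENSMUST00000041500.8, ENSMUST00000040514.8 and ENSMUST00000190827.7. ENSMUST00000024956.15 had 6 whole values of 12, ENSMUST00000240553.1 had 8 and ENSMUST00000036267.8 had 11. Few rows within 10 places in the list reached 20 reads: 2 in bulk RNA for each of ENSMUST00000036267.8, ENSMUST00000240553.1 and ENSMUST00000190827.7, 1 for ENSMUST00000024956.15 and 0 for the other 2, and in RiboTag RNA only 1, beside ENSMUST00000190827.7. Calls of the neighbours can therefore say little, and their summed reads are given instead.

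Beside ENSMUST00000041500.8 the neighbouring rows held only 4.17 bulk reads without and 1.71 with injury, so that it carried 97.4% and 99.4% of the reads of its stretch of the list. Next to ENSMUST00000024956.15 the other rows held 41.4 and 37.4 bulk reads, and next to ENSMUST00000190827.7 they held 118 and 113. Those around ENSMUST00000240553.1 held 62.4 and 50.7. With ENSMUST00000036267.8 the other rows held more bulk reads than the transcript itself in both conditions, 106 without and 63.8 with injury. Without injury this also held in bulk RNA for ENSMUST00000190827.7, ENSMUST00000240553.1 and ENSMUST00000040514.8. In RiboTag RNA it held in both conditions for ENSMUST00000190827.7 alone, with 52.5 and 36.7 reads in the other rows against 23.3 and 29.3. Summed with the other rows, ENSMUST00000036267.8 had a bulk log2 change of -0.017 (-0.39 to 0.34) and a RiboTag log2 change of 0.80 (-0.09 to 1.67). For ENSMUST00000040514.8 the summed bulk change was 0.64 (0.02 to 1.30). For the other 4 the summed bulk change was smaller than that of the transcript alone but still 2-fold or more, from 1.07 to 1.18. For ENSMUST00000190827.7 it was 1.17 against 2.38 alone, for ENSMUST00000240553.1 1.09 against 1.89, and for ENSMUST00000024956.15 1.18 against 1.79. For ENSMUST00000041500.8 it was 1.07 against 1.09. Which of these rows belong to the same gene is not given in the sources used here, and whether reads moved between rows was not tested.

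Together the 6 transcripts made up 0.0584% of reads in uninjured and 0.173% in injured bulk RNA, and 0.0400% and 0.163% in RiboTag RNA. These shares rest on 347 and 914 reads in bulk and on 83.0 and 130 reads in RiboTag RNA, as means of the 3 columns. The higher shares after injury follow from how the transcripts were chosen.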

How the data were processed

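Each of the 4 deposited files lists 116912 transcripts, with estimated counts of reads in 3 columns and TPM in 3 more, per the file headers. minimap2, Salmon, GRCm39 and mm39 are named in the submitters' processing notes; versions, settings, annotation and the origin of the 3 columns were not given in the sources used here. The deposited TPM equals the estimated count times a constant, to within 0.0499%, so no length entered it. The labels give 1 sample per group, and nothing says that columns came from separate animals, so columns were averaged and counted as 1 sample.

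Log2 ratios of mean counts, scaled by library total, had 0.5 read added; 95% intervals are exact conditional binomial, from counts rounded to whole numbers (levels: Clopper-Pearson; ratio change: normal, from the 4 counts). A call needed 20 or more reads in the 2 libraries compared, 2-fold and an interval excluding no change; the ratio change needed 20 reads in all and 5 in each assay. A count of 0 allows up to 3 reads, or 5.06 and 5.67 RPM in uninjured and injured bulk and 14.5 and 37.8 RPM in the RiboTag libraries; none of the 6 transcripts had a mean of 0. Each group has 1 sample, so intervals cover counting error of reads only. Reads also lack molecular identifiers, so copies made by PCR with the RiboTag kit could not be told apart. Alternative scalings used edgeR 4.0.16 (TMM) and DESeq2 1.42.0 (size factors) on counts rounded to whole numbers; other work used Python 3.11.15 with scipy 1.17.1.

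The 6 transcripts, lists and rules were chosen with earlier results of these data known. The naming rule covered the 6, for each the 2 steady transcripts with the nearest profile, and the 3 just outside the choice; most of the latter are given without identifiers. Lists of regeneration genes, cell type markers and promoter motifs were planned but could not be applied, because 0 transcript identifiers matched a gene in the tables used here.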

Additional observations from a re-analysis of the deposited data

How the results depend on the processing

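Leaving out column 1, 2 or 3 in turn gave 5 of 6 transcripts at 2-fold or more in bulk RNA (6 with all columns), 6 in RiboTag RNA and 5 in both. TMM factors and a pseudocount of 5 reads gave 5, 6 and 5, and the transcript lost was ENSMUST00000036267.8 in both. Totals without the dominant pair, DESeq2 size factors and summed columns kept all 6 in both assays. Summing each transcript with the rows within 10 places, an alternative chosen after the data were seen, gave 4, 5 and 4, and turned the bulk change of ENSMUST00000036267.8 to -0.017. These rows are not known to belong to the same gene, and adding rows that rose less lowers a change whichever gene they belong to. In the uninjured RiboTag to bulk ratio (1 call, lower), totals without the dominant pair gave 2 calls, both higher. TMM factors, DESeq2 size factors and summed columns gave 2, of which 1 was higher (ENSMUST00000040514.8) and 1 lower. Summed rows gave 2, both lower, adding ENSMUST00000240553.1 at -1.38, and leaving out a column gave 1 to 2. In the injured ratio (1 call, higher), totals without the pair, TMM factors and DESeq2 size factors gave 2, both higher, and leaving out a column 0 to 1. For the ratio change (1 call), summed columns gave 2, adding ENSMUST00000036267.8 at 1.09, and leaving out a column 0 to 1. Summing triples the reads and narrows the intervals; for the other settings the cause was not tested.

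Over all transcripts, 403 were called higher in bulk RNA, 183 with a minimum of 50 reads and 795 with none. In RiboTag RNA 55 were called higher, 15 with a minimum of 50 reads, 239 with none and 89 with totals lacking the pair. A chi-square p above 0.01 for steadiness left 1177 transcripts and the same count of 8 higher in both assays. Summing transcripts by gene was not run, because no identifier was paired with a gene. No paired analysis was possible because each group has 1 sample. Depth limits the RiboTag values: the 6 held 8.46 to 23.3 reads in uninjured and 13.7 to 35.3 in injured RiboTag RNA.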
